A study of Mus musculus with 16 samples.

Results

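The levels of 9 myelin genes were followed through RNA sequencing libraries of microglia, the resident macrophages of the brain, isolated from the mouse olfactory bulb. The genes were the 9 rows of the count table with the symbols Mbp, Mog, Mag, Mobp, Cnp, Cldn11, Mal, Ermn and Opalin, out of 57010 genes listed. Cells were pulled from dissociated bulbs with magnetic beads against the surface protein CD11b, and each of the 16 libraries came from mice aged 2 months. WT mice were C57BL/6J animals with an unaltered App gene (4 female and 4 male libraries). APP-NL-G-F mice carried a knock-in App allele with a humanised amyloid-beta sequence and the Swedish, Arctic and Iberian changes, expressed from the App locus itself (4 female and 4 male libraries). The labels number the replicates without naming animals, so p-values measure the spread between these libraries.

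Myelin is the stack of membrane that oligodendrocytes wrap around axons in the central nervous system. Its proteins are made in oligodendrocytes, and some of the messages are carried out into the myelin sheath. Microglia are not myelinating cells, but they engulf myelin, and a CD11b isolation can also carry other cells or fragments along. In a bulk library, fewer cells of a type and less RNA per cell cannot be told apart.

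The libraries held 9052932 to 18117286 counts each. The 9 myelin genes took 0.0176% to 0.0335% of the counts in a library, and all 9 passed the filter of at least 5 counts in at least 8 libraries, as did 18227 genes in all. Levels are given as CPM, the counts scaled to a common library size after correction of the library total by TMM factors. A count of 0 allows up to 3 counts, or 0.169 to 0.347 CPM depending on the library, for counting error only. The 9 myelin genes summed to 183 to 330 CPM per library, while 12 microglia genes, among them Csf1r and Cx3cr1, summed to 20016 to 23727 CPM. The sum of the myelin genes was 0.895% to 1.59% of the microglia sum. Xist was at 547 CPM or more in every female library and at 0.448 CPM or less in every male library, so the sex labels held.

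The promoters of these genes are shown because the genes varied together across libraries. Oligodendrocyte genes are known to be driven by SOX10, MYRF and OLIG2. Whether these factors had a part in the variation between libraries was not tested. The windows run from 250 bases before to 50 bases after the transcript start in RefSeq (table build GRCm38.p6), and each matched GRCm39 exactly at 1 place. The table held 8 of the 9 genes, without Mbp, in 10 windows, of which Mag has 3, and 2 of these overlap. Capitals mark the SOX core ACAANG, the MYRF forms CTGGCAC and CTGGTAC and the E-box CAGCTG, on either strand. The motifs do not overlap in the windows printed. The Mobp window lies at chr9:119978558-119978857 on the plus strand, the Mog window at chr17:37334241-37334540 on the minus strand and the Cnp window at chr11:100465515-100465814 on the plus strand, each written on the strand of its gene.
Mobp: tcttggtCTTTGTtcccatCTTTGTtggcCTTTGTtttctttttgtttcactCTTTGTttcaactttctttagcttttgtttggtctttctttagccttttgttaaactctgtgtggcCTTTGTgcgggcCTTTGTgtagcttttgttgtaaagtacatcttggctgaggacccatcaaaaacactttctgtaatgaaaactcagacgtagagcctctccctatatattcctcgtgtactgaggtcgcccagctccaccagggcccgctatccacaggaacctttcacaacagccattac
Mog: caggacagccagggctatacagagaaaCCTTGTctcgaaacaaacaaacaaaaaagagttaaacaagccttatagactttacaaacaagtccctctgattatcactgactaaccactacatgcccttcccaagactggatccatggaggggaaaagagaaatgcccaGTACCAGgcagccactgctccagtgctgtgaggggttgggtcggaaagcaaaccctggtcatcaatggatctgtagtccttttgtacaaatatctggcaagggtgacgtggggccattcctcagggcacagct
Cnp: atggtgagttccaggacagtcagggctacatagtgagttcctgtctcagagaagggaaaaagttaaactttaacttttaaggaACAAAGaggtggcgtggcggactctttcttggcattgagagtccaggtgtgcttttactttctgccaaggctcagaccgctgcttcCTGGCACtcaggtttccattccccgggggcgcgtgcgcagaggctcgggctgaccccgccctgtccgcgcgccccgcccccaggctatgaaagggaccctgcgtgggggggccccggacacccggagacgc

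The Mobp window held 6 matches to the SOX core, all written here as the reverse complement, and 0.0152% of 32851 mouse promoters of the same length held 6 or more. The count of 6 was taken from this window, the highest of the 10, so its small share is no test. The other windows held 0 to 2 matches. At least 1 SOX core match stood in 8 of the 10 windows, against 41.2% of all promoters. Counted by gene these were 6 of 8, without Cldn11 and Mal. The form CTGGCAC was found in 4 of the 10 windows, in 3 of the 8 genes (Cnp, Mag and Opalin), against 5.01% of all promoters. CTGGTAC was found in 1 window of Mog (2.24%) and CAGCTG in 1 of Opalin (16.3%). None of the 10 windows held TATAAA, against 13.6% of all promoters. These are matches of letters and not sites of binding.

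Per length, the 9 genes spread over more than 2 orders of magnitude. Levels per length are RPKM, the CPM divided by the merged exon length of the gene in kilobases. Cnp, a cyclic nucleotide phosphodiesterase of the non-compact parts of myelin, was highest at 13.4 ± 1.33 RPKM (SD, n = 16), above 88.8% of the tested genes with a length. Mbp, the basic protein that holds the cytoplasmic faces of compact myelin together, followed at 11.6 ± 2.45 RPKM. Both had overlapping ranges, with Cnp the higher in 13 of 16 libraries. This order depends on the merged length, which was 9745 bases over 69 annotated transcripts for Mbp and 4049 bases over 14 for Cnp. By CPM Mbp was the higher, with a mean of 113 against 54.1 for Cnp. Mobp, a small basic protein of compact myelin, was at 5.18 ± 1.5 RPKM, and Mal, a raft protein of membrane transport, was at 4.76 ± 1.94 RPKM. Mobp was the higher in 11 of 16 libraries, so these neighbours did not differ beyond their spread.

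Mag, an adhesion protein facing the axon, was at 2.97 ± 0.307 RPKM, and its lowest library lay above the highest library of Cldn11, which forms the tight junctions between myelin layers (1.27 ± 0.47 RPKM). Ermn, an actin-binding protein of mature oligodendrocytes, was at 1.05 ± 0.464 RPKM, and Mog, an immunoglobulin-like protein on the outer surface of myelin, was at 0.803 ± 0.311 RPKM. The ranges of Cldn11, Ermn and Mog overlapped. Opalin, a membrane glycoprotein of oligodendrocytes, was lowest at 0.0655 ± 0.0283 RPKM, above 0.756% of the tested genes, and its range lay below that of Mog. Microglia genes stood higher, such as Trem2 at 61.6 RPKM and Csf1r at 770 RPKM.

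**Figure D1:**
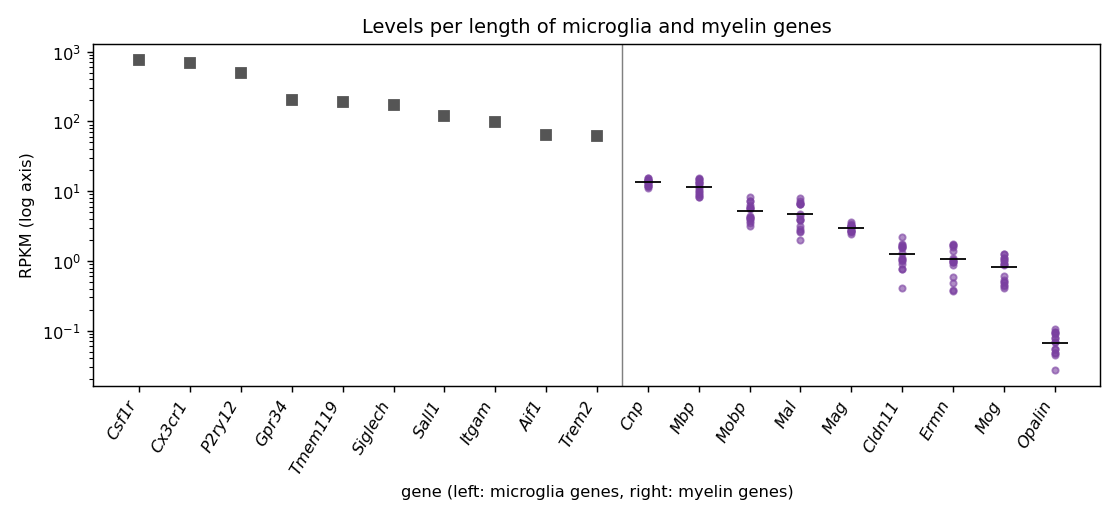
RPKM on a log axis of 10 microglia genes (squares, mean over 16 libraries) and of the 9 myelin genes (dots, 1 per library, with the mean as a bar). The myelin genes lie below the lowest microglia gene, Trem2 at 61.6 RPKM, and the Opalin library with 0 counts is not drawn.

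The gene models limit how some of these values can be read. The Mbp gene (ENSMUSG00000041607, chr18:82493207-82603763 on GRCm39) spans 110557 bases and includes the upstream golli transcripts, which immune cells are known to express. A count per gene does not separate them from the myelin forms. Cnp (chr11:100465730-100482936) shares 670 exonic bases with Dnajc7 on the opposite strand, which had 1043 to 1984 counts per library. Mog (ENSMUSG00000076439, chr17:37321521-37334350) shares 1474 exonic bases with Zfp57 on the opposite strand, which had 8 to 49 counts. The library kit keeps strand, but the strand setting of the counting is not given in the sources used here. Reads of these overlaps may therefore be assigned to either gene or to neither. Cldn11 and Mal overlap no other gene.

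The genes differed in how steady they were. Cnp varied least, with a coefficient of variation of 9.95% and a highest library 1.4 times the lowest, and Mag came next at 10.3%. Counting error alone would give 3.9% for Cnp and 7.47% for Mag. Mbp varied by 21.1%, Mobp by 29.1%, Cldn11 by 37.1%, Mog by 38.7%, Mal by 40.7% and Ermn by 44.1%. Opalin, with 0 to 10 counts per library, varied by 43.3%, which is no more than the 44.6% that counting error gives.

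Mbp was the most counted of the 9, with 706 to 2147 counts. In WT females it was at 131, 148, 96.6 and 81.3 CPM, in the order of the replicate numbers, and in WT males at 88.5, 93.4, 79.1 and 86.1 CPM. In APP-NL-G-F females it was at 144, 126, 119 and 103 CPM and in APP-NL-G-F males at 126, 136, 112 and 143 CPM. WT female replicate 2 was the highest of all 16 libraries and WT female replicate 1 stood among the APP-NL-G-F libraries, while the other 6 WT libraries lay below all 8 APP-NL-G-F libraries.

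Mog had 9 to 43 counts per library. Its levels were 2.06, 2.31, 0.928 and 1.37 CPM in WT females and 1.03, 1.12, 1.01 and 1.12 CPM in WT males. They were 2.88, 2.91, 2.07 and 1.2 CPM in APP-NL-G-F females and 2.38, 1.99, 2.52 and 2.46 CPM in APP-NL-G-F males. The lowest APP-NL-G-F library, female replicate 4, lay among the WT libraries, and the males of both genotypes did not overlap.

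Cnp was at 54.3, 59, 50.9 and 47.3 CPM in WT females, 48.1, 55.7, 44.4 and 47.5 CPM in WT males, 62, 58.7, 50.7 and 54.7 CPM in APP-NL-G-F females and 56.8, 55.9, 58.8 and 61.3 CPM in APP-NL-G-F males. The female groups overlapped, and the male groups were parted by 55.7 against 55.9 CPM. Ermn was at 4.13, 4.74, 2.5 and 2.05 CPM in WT females, 4.37, 4.16, 1.57 and 3.76 CPM in WT males, 7.49, 7.31, 4.13 and 1.65 CPM in APP-NL-G-F females and 6.8, 5.79, 4.37 and 7.24 CPM in APP-NL-G-F males. APP-NL-G-F female replicate 4 was the second lowest of the 16 libraries for Ermn.

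Mal varied widely among WT libraries. It was at 20.5, 22.8, 11.4 and 7.26 CPM in WT females and at 8.05, 9, 10.9 and 5.69 CPM in WT males. In APP-NL-G-F mice it was at 18.7, 13.2, 12.6 and 7.56 CPM in females and at 19, 18.7, 11 and 18.6 CPM in males. The highest libraries of all were WT females 1 and 2, and the males of both genotypes were parted by 10.9 against 11 CPM. The other 4 genes ranged from 28.1 to 72.9 CPM (Mobp), 12.2 to 17.7 CPM (Mag), 1.01 to 5.49 CPM (Cldn11) and 0 to 0.669 CPM (Opalin).

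**Figure D2:**
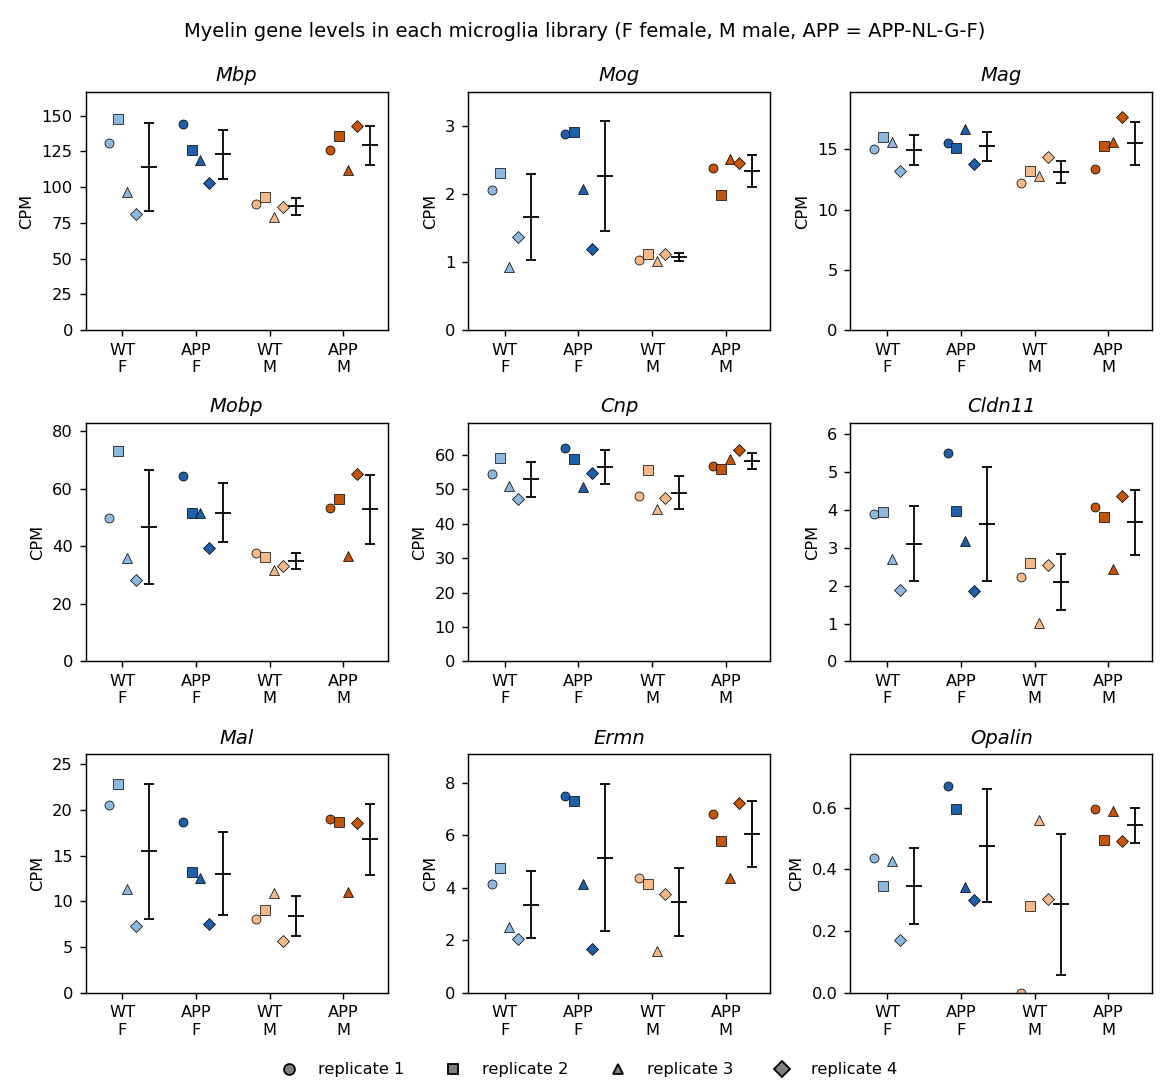
CPM of each myelin gene in each of the 16 libraries, by genotype and sex, with the mean ± SD of each group of 4 as a bar beside its points. APP-NL-G-F males lie above WT males without overlap for Mbp, Mog, Cnp and Mal, while the female groups overlap for all 9 genes.

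Genotype was compared over both sexes to ask whether myelin transcripts in the microglia isolate differ between APP-NL-G-F and WT mice. Mog rose and was the 1 gene of the 9 called, at a fold change of 1.7 in APP-NL-G-F over WT (log2 fold change 0.77 ± 0.219 (SE), adjusted p = 0.0335). Calls needed an adjusted p (Benjamini-Hochberg) below 0.1 in the quasi-likelihood test of edgeR, with sex as a term, and a log2 fold change of more than 0.5 in size, and 4.33% of the 18227 tested genes were called higher (8.64% in either direction). Mbp was 1.27 times as high (0.34 ± 0.114, adjusted p = 0.0692) and Cnp 1.13 times (0.17 ± 0.0589, adjusted p = 0.0743). Both passed the adjusted p but not the fold threshold. An adjusted p below 0.1 with a higher level was found for 3 of the 9 and for 6.95% of all tested genes. Ermn had a log2 fold change of 0.71 ± 0.265 and missed the call at an adjusted p of 0.102.

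The remaining 5 genes were not called. Their log2 fold changes were 0.69 ± 0.349 for Opalin (adjusted p = 0.241), 0.50 ± 0.234 for Cldn11 (adjusted p = 0.2), 0.38 ± 0.164 for Mobp (adjusted p = 0.161), 0.36 ± 0.261 for Mal (adjusted p = 0.443) and 0.14 ± 0.0732 for Mag (adjusted p = 0.274). All 9 values lay above 0, as did 49.6% of those of all tested genes, with a median of 0.38 against -0.00. At an unadjusted p under 0.05, 6 of the 9 were higher, against 12.3% of all tested genes. For none of the 9 did all 8 APP-NL-G-F libraries lie above all 8 WT libraries, which 0.137% of tested genes did. The 9 genes vary together and come from the same libraries, so their count is not 9 separate measurements.

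A two-sided exact permutation test that exchanged genotypes among libraries of the same sex (4900 splits) gave p = 0.00653 for Mog, 0.0159 for Cnp, 0.0224 for Mbp and 0.0294 for Opalin, unadjusted. For the other 5 genes it gave 0.06 (Mobp), 0.0637 (Ermn), 0.0678 (Mag), 0.0873 (Cldn11) and 0.197 (Mal). All 8 APP-NL-G-F libraries lay above the WT median for Mbp, Mog, Mobp and Cnp. The share of all tested genes that did so was not counted, so this describes the libraries only. The genes on the opposite strand of Mog and Cnp had log2 fold changes of 0.18 ± 0.227 for Zfp57 (adjusted p = 0.701) and -0.07 ± 0.0445 for Dnajc7 (adjusted p = 0.404). Leaving out each library in turn left between 1 and 3 of the 9 called, among 1101 to 2187 genes in all. There were 3 without WT female replicate 2 (Mog, Mobp and Ermn, 1253 genes). There were also 3 without APP-NL-G-F female replicate 4 (Mog, Cldn11 and Ermn, 1355 genes). Without APP-NL-G-F male replicate 3 (2187 genes) or without WT male replicate 1 (1742 genes), Mog and Ermn were called.

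**Figure D3:**
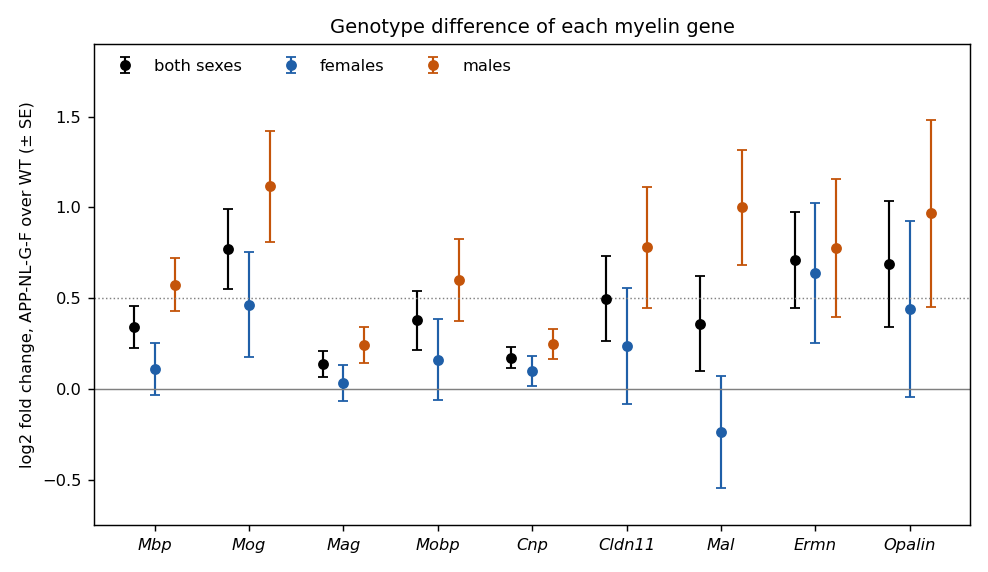
Log2 fold change of APP-NL-G-F over WT with its standard error for each myelin gene, over both sexes (black), in females (blue) and in males (orange), with a dotted line at the fold threshold of 0.5. All 9 values lie above 0 over both sexes and in males, and Mal lies below 0 in females.

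In females none of the 9 differences was called. Log2 fold changes ran from -0.24 ± 0.306 for Mal to 0.64 ± 0.384 for Ermn, with a median of 0.16, and 8 of the 9 lay above 0 (50.2% of tested genes). By edgeR 7.15% of tested genes were called, and none of the 9 had an unadjusted p under 0.05, which 9.75% of tested genes reached on the higher and 11.1% on the lower side. The groups overlapped for all 9 genes, where 5.21% of tested genes had every APP-NL-G-F library above every WT library. DESeq2 (1450 genes called) and limma voom (1256 genes called) also called 0 of the 9. The 95% intervals of Mbp (-0.17 to 0.39) and Cnp (-0.06 to 0.26) leave room for small differences in either direction. Those of Ermn (-0.11 to 1.39), Opalin (-0.51 to 1.39), Mog (-0.1 to 1.03), Cldn11 (-0.39 to 0.86) and Mal (-0.84 to 0.36) leave room for larger ones.

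In males all 9 values lay above 0 (50% of tested genes), with a median of 0.78. Mog was 2.17 times as high in APP-NL-G-F males (1.11 ± 0.308, adjusted p = 0.149), Mal 2 times (1 ± 0.318, adjusted p = 0.22), Mobp 1.52 times (0.60 ± 0.226, adjusted p = 0.303) and Mbp 1.49 times (0.57 ± 0.145, adjusted p = 0.127). None of the 9 was called by edgeR, where 0.252% of tested genes were, while 7 had an unadjusted p under 0.05 and were higher, against 5.62% of tested genes. DESeq2 called Mbp and Mog among 276 genes in all, where edgeR called 46, and limma voom called 0 of the 9 among 84. For Mbp, Mog, Cnp and Mal every APP-NL-G-F male library lay above every WT male library, as it did for 1.83% of tested genes. The exact permutation within males gave p = 0.0286 for each of these 4, the smallest p that 4 against 4 libraries allow. Without APP-NL-G-F male replicate 3, edgeR called Mbp, Mobp and Mal in males, among 603 genes in all. Without WT female replicate 4, which enters this fit through the shared estimate of spread, it called Mbp among 59 genes.

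The difference between the sexes was tested as the interaction of genotype and sex. All 9 interaction values lay below 0 where 50.8% of tested genes lay above it, that is, toward a larger difference in males, with a median of -0.47. Those of Mal (-1.24 ± 0.442, adjusted p = 0.618) and Mbp (-0.47 ± 0.204, adjusted p = 0.777) had an unadjusted p under 0.05 in edgeR's test, as did 4.07% of tested genes on the lower side. None of the 9 was called by edgeR (0.0274% of tested genes were), DESeq2 or limma voom. The larger difference in males is therefore not shown by these tests. The 9 genes summed to 183 to 216 CPM in WT males, 183 to 330 CPM in WT females, 224 to 321 CPM in APP-NL-G-F females and 244 to 320 CPM in APP-NL-G-F males.

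Genes of other cell types also moved within the sexes, and their part in the myelin values was not tested. All 10 endothelial genes lay below 0 in females (median -1.02, 7 called lower) and above 0 in males (median 0.82, with Abcb1a called higher). Their sums were 103 to 228 CPM in WT females, 69.1 to 82.9 CPM in WT males, 90.2 to 112 CPM in APP-NL-G-F females and 88.2 to 123 CPM in APP-NL-G-F males. The 12 neuron genes summed to 400 to 559 CPM in WT and 499 to 734 CPM in APP-NL-G-F libraries. Over both sexes 9 of the 12 lay above 0 with a median of 0.25 and none was called, while 5 had an adjusted p below 0.1 and were higher. The 10 astrocyte genes had a median of -0.20 over both sexes, with 0 called. Within females the astrocyte genes Gfap, Aqp4 and Aldoc were called lower and the neuron genes Syt1 and Gad1 higher. Over both sexes the 12 microglia genes had a median of 0.01, with 0 called. All genes of these 4 lists passed the count filter.

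No difference between the sexes was called for any of the 9 genes. Female over male log2 fold changes ran from -0.16 (Ermn) to 0.24 (Mog), with adjusted p between 0.816 and 0.986. None was called by edgeR (0.0604% of tested genes were), DESeq2 or limma voom, and none had an unadjusted p under 0.05, which 4.24% of tested genes reached on the higher and 2.32% on the lower side. Opalin, at 0.0543 ± 0.343, changed sign when single libraries were left out.

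Library numbers gave a second split. Numbers 1 to 8 hold replicates 1 and 2 of every group and numbers 9 to 16 hold replicates 3 and 4, and the labels do not call these batches. Libraries 9 to 16 had less Ermn (log2 fold change -0.74 ± 0.211, adjusted p = 0.0862), which was called lower where 0.0988% of tested genes were. Values for 8 of the 9 genes lay below 0, where 52.2% of tested genes lay above it, with a median of -0.39 against 0.01 for all tested genes, and 6 had an unadjusted p under 0.05 and were lower (8.16% of tested genes). DESeq2 called 0 of the 9, among 61 genes in all. With each library left out in turn the call of Ermn held in 4 of 16 fits. These were the fits without APP-NL-G-F male replicates 2, 3 or 4 (129, 242 and 125 genes called) or WT male replicate 4 (116 genes). In the fit without APP-NL-G-F male replicate 4, Mobp, Cldn11 and Mal were called lower as well. The summed level of the 9 genes was 202 to 330 CPM in libraries 1 to 8 and 183 to 320 CPM in libraries 9 to 16.

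The genotype difference was then read within each of these sets. All 9 log2 fold changes lay above 0 in libraries 1 to 8 (median 0.25) and in libraries 9 to 16 (median 0.52). The shares of all tested genes were not counted within these sets, so these values describe the 9 genes only. Mog was at 0.67 ± 0.282 and 0.92 ± 0.309, and Mbp at 0.22 ± 0.129 and 0.48 ± 0.131. The lowest adjusted p of the 9 was 0.134 in the former and 0.159 in the latter. With the set as a term in the fit, Mog and Ermn were called over both sexes, among 1655 genes in all.

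The 9 genes varied together from library to library. All 36 pairs correlated above 0 across the 16 libraries on the log2 CPM scale (Pearson r 0.294 to 0.955, median 0.716), and 32 were above 0.5. After the group means were taken out, the median was 0.591 and the lowest 0.040. The points share libraries, depth and scaling, so these are descriptions. APP-NL-G-F female replicate 1 ranked highest, with a median rank of 2 over the 9 genes, and WT female replicate 4 and WT male replicate 3 ranked lowest, with a median rank of 15.

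**Figure D4:**
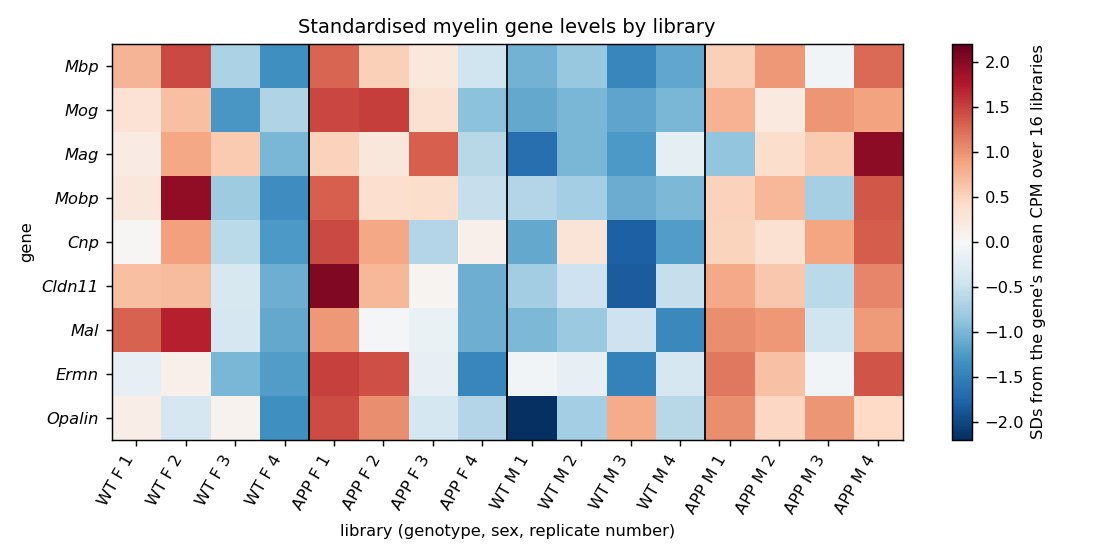
Level of each myelin gene in each library as the number of SDs from that gene's mean CPM over the 16 libraries (red above, blue below), with black lines between the 4 groups. Whole columns share a colour, such as the low WT female replicate 4 and the high APP-NL-G-F female replicate 1, and Opalin is at 0 counts in WT male replicate 1.

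Mbp and Mobp were the closest pair, with r = 0.955 and Spearman's rho = 0.947 over 16 libraries. In a family of 13 relations of Mbp the permutation p of this r was 1e-05, the smallest that 100000 resamples allow, and 6.50e-05 after adjustment (0.00013 for rho). Without the 2 libraries farthest from the median of Mbp, WT male replicate 3 and WT female replicate 4, r was 0.942. It was 0.951 in libraries 1 to 8, 0.936 in libraries 9 to 16 and 0.961 after removal of the group means. Relations with the other 7 genes ran from r = 0.515 for Opalin (rho = 0.515, adjusted permutation p = 0.0454 and 0.0634) to 0.877 for Mal (rho = 0.879, adjusted permutation p = 0.000217 and 0.00013).

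Markers of other cells had correlations with Mbp from 0.196 to 0.533. Slc1a2, an astrocyte glutamate transporter, had r = 0.533 and rho = 0.550 (adjusted permutation p = 0.0454 and 0.0477), and r was 0.729 in libraries 1 to 8 but 0.041 in libraries 9 to 16. After removal of the group means its r was 0.847 (adjusted permutation p = 0.00013), beside 0.857 for Mal and 0.813 for Cldn11. Cldn5 of endothelial tight junctions had r = 0.447 and rho = 0.426 (adjusted permutation p = 0.108 and 0.13), and the synaptic gene Snap25 had r = 0.396 and rho = 0.347 (0.154 and 0.223). The microglia receptor P2ry12 had r = 0.323 and rho = 0.285 (0.24 and 0.307), and Pdgfra of oligodendrocyte precursors had r = 0.196 and rho = 0.082 (0.468 and 0.765). Differences between these correlations were not tested.

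The ratios between genes were not fixed. Mag over Mobp ranged from 0.219 in WT female replicate 2 to 0.471 in WT female replicate 4, in which Mobp was highest and lowest of all libraries. Cnp over Mobp ranged from 0.808 to 1.68 between the same libraries. Mbp over Mobp ranged from 2.03 to 3.06.

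**Figure D5:**
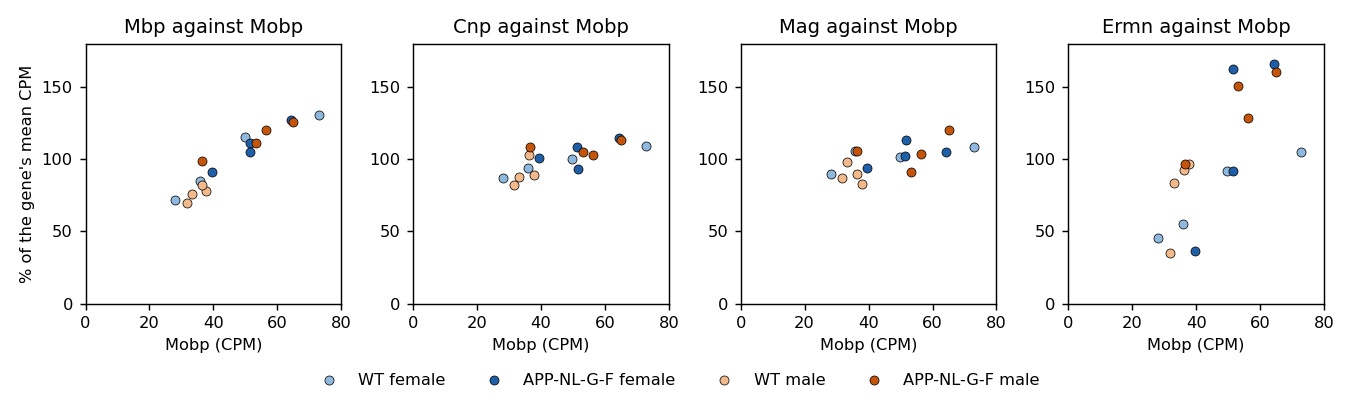
Level of Mbp, Cnp, Mag and Ermn in each library, as a percentage of the gene's own mean CPM, against the CPM of Mobp, coloured by group. Mbp climbs along with Mobp (r = 0.955), Cnp and Mag change little (coefficients of variation of 9.95% and 10.3%), and Ermn spreads widely, from 1.57 to 7.49 CPM.

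Among the tested genes outside the 9, those ranked 2 to 10 by their correlation with the mean standardised level of the 9 over 16 libraries included known oligodendrocyte genes. These were Tspan2, a tetraspanin (r = 0.884), the receptor Gpr37 (0.877), Bcas1 of myelin-forming cells (0.843) and the connexin Gjc3 (0.832). Tubb4a, a tubulin common in oligodendrocytes and neurons, had r = 0.850. The others were the glycolytic enzyme Hk1 (0.865), the kinesins Kif5c (0.850) and Kif5a (0.823) and the kinase Map2k4 (0.824). The 4 oligodendrocyte genes stayed at 0.731 or above after the group means were taken out. So did Kif5c (0.841), Map2k4 (0.833), Kif5a (0.790) and Tubb4a (0.751), and Hk1 was at 0.719. Across the gene lists, the median correlation with this pattern was 0.522 for 18 other mature oligodendrocyte genes, 0.491 for 7 oligodendrocyte transcription factors, 0.455 for 10 endothelial genes, 0.438 for 10 astrocyte genes, 0.207 for 12 microglia genes, 0.134 for 12 neuron genes and -0.019 for 12 precursor genes. After the group means were taken out the order of the lists changed, and the astrocyte genes had the higher median, 0.725 (0.583 to 0.827), against 0.506 (-0.360 to 0.892) for the other mature oligodendrocyte genes. The medians were then 0.541 for endothelial genes, 0.386 for the transcription factors, 0.339 for microglia genes, -0.143 for neuron genes and -0.310 for precursor genes.

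The rest of the oligodendrocyte programme was read over both sexes in the same fit. Of 20 other mature oligodendrocyte genes 18 were tested, 17 lay above 0 with a median log2 fold change of 0.45, and 2 were called, both higher, among them the membrane gene Tmem88b (0.54 ± 0.187, adjusted p = 0.0809). Trf, the iron carrier transferrin, is named after its values were seen because it made up most of the list's CPM (993 CPM on average), and it had a log2 fold change of 0.02. The 5 enzymes of myelin lipids had a median of 0.14 and none called. Ugt8a, which makes galactocerebroside, was at 0.54 ± 0.203 (adjusted p = 0.103), and Aspa, which cleaves N-acetylaspartate, at -0.59 ± 0.219 (adjusted p = 0.102).

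Transcription factors of the lineage had a median of 0.33, with 7 of 9 genes tested, 6 above 0 and none called. Those with the highest mean CPM lay below this median. Sox8 was at -0.07, Olig1 at 0.06 and Sox10 at 0.18, and their levels averaged 5.55, 5.42 and 3.97 CPM. The 12 precursor genes had a median of 0.27, with 10 above 0 and none called over both sexes, while Lhfpl3 and Pcdh15 were called higher in females. Of the 7 genes listed for peripheral myelin 3 were tested, and Egr2, a factor of Schwann cells that myeloid cells also express, was lower (-0.74 ± 0.186, adjusted p = 0.0177). Pmp2, a defining gene of that list, was at 0 counts in every library. The 6 tested genes of olfactory ensheathing cells, the glia around the olfactory nerve, had a median of -0.22 and none called.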

How the data were processed

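Microglia of the olfactory bulb were isolated with CD11b magnetic beads, and stranded libraries were made from total RNA. For alignment in STAR the authors used GRCm39, gencode vM32 and an extra human App sequence, and they deposited a table of raw counts per gene, with 1 column for each of the 16 libraries. The strand setting of the counting is not given in the sources used here. A reporting form mentions technical replicates for RNA sequencing, and no separate columns for them were used here.

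Counts were analysed in R 4.3.3 with edgeR 4.0.16, with TMM factors, and genes were kept when 50% of the libraries or more had a count of 5 or above. Genotype was tested with the quasi-likelihood test (trended dispersion) with sex as an additive term. Contrasts within a sex and the interaction came from a fit of 4 groups, and library numbers 9 to 16 against 1 to 8 from a fit with that split as a further term. Calls needed a Benjamini-Hochberg adjusted p below 0.1 and a log2 fold change of more than 0.5 in size. The standard error of a log2 fold change was taken from its size and its F statistic, and 95% intervals use 1.96 standard errors. For permutations and correlations log2 CPM was computed with a prior count of 2, and exact permutation tests exchanged genotype within sex. RPKM values used merged exon lengths of gencode vM39, which is on the build of the files but a later release. Library totals of 9052932 to 18117286 counts set the precision of low genes such as Opalin. The procedure was tested on simulated data.

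The members, the gene lists, the tests and the alternatives were chosen with earlier results of these data known. The text names all 9 members, the called genes of each other list or, with none called, up to 3 with the highest mean CPM, and the 10 genes outside the members that correlate best with their mean level. The values of some of these genes are not reported here. The alternatives were other normalizations and filters, DESeq2 1.42.0, limma 3.58.1 (voom), a robust dispersion, an adjusted p below 0.05, a replicate block, the library number split as a term, no sex term, and each library left out in turn. Genotype within the library number split and the adjusted p alone were added after seeing the data.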

Additional observations from a re-analysis of the deposited data

Results flagged for a closer look

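Mal in APP-NL-G-F males had 1 library apart from the others. Replicate 3 was at 11 CPM, against 18.6 to 19 CPM in the other replicates, and its gap to the next library was 0.946 of the group's range, above Dixon's 95% critical value for 4 samples. The 9 genes and the library totals gave 40 groups of 4 libraries, in which chance would mark about 2, and 1 was marked. In the same library Mbp (112 CPM), Mobp (36.5 CPM), Cldn11 (2.43 CPM) and Ermn (4.37 CPM) were lowest of their group as well. Mog (2.52 CPM) was highest of its group there, and Mag, Cnp and Opalin were neither lowest nor highest. The exact permutation within males needs no fitted spread and gave p = 0.0286 for Mal with this library included. That is the smallest p that 4 against 4 libraries allow. It rests on 11 CPM in this library against 10.9 CPM in WT male replicate 3, so it adds nothing to the lack of overlap.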

How the results depend on the processing

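Mog was called over both sexes in all 28 fits, with log2 fold changes of 0.69 to 0.90 and adjusted p of 0.0081 to 0.0664. The median log2 fold change of the 9 genes was 0.31 to 0.53 with each library left out in turn. The number of the 9 called over both sexes was 1 as reported, among 1574 genes in all. It was 2 (Mog and Ermn) with upper quartile normalization (1600 genes), with no filter on low counts (1873) and in DESeq2 (1610). The same 2 were called with the replicate block (1562), with the library number split as a term (1655) and with no sex term (1521). With the adjusted p alone 3 were called (Mbp, Mog and Cnp, 2692 genes), and with each library left out 1 to 3 (1101 to 2187 genes). Females had 1 called (Ermn) with no filter, when 2136 genes were called in place of 1304. Males had 6 with no filter, when 880 genes were called in place of 46, 2 in DESeq2 (276 genes), 1 with the replicate block (43 genes), 2 with the library number split as a term (141 genes) and 0 to 3 with each library left out (5 to 603 genes). The interaction had 1 (Mal) with no filter, when 470 genes were called in place of 5. For library numbers the count of 1, among 133 genes, became 3 with no filter (304 genes) and 0 in DESeq2 (61 genes). It was 0 at an adjusted p below 0.05 (60 genes) and 0 to 4 with each library left out (83 to 242 genes). The cause of these shifts was not tested.

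Single values that changed sign with a library left out were small, and they spanned -0.023 to 0.47 for Cldn11, -0.0103 to 0.0927 for Mag and -0.0037 to 0.27 for Mbp within females, -0.36 to 0.17 for Ermn in the interaction, -0.11 to 0.17 for Opalin between the sexes and -0.27 to 0.0216 for Opalin between library numbers. Without TMM factors the exact permutation p of Mag (0.0143), Mobp (0.0298) and Ermn (0.0457) came under 0.05. After the group means were removed, the correlation of Mbp was -0.086 with Snap25 and -0.174 with Pdgfra, and it rose from 0.533 to 0.847 with Slc1a2. Replicate numbers gave no clear pairing of the libraries. Over 24 pairs of libraries with the same number in different groups, deviations from group means correlated from -0.330 to 0.292 (median 0.034), and 8 pairs were above 0.1, so the replicate block shares only a number. Few counts limit Opalin (0 to 10 counts) and Mog (9 to 43 counts).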
